A study of Mus musculus with 6 samples.

Results

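Cholesterol synthesis in cultured mouse erythroblasts was followed through 29 genes picked by name: 20 enzymes that lead from acetyl-CoA to cholesterol, 6 genes of the control system of the transcription factor SREBP2, and 3 genes that carry sterol through the cytosol or out of lysosomes. All 29 were present among the 17691 genes of the deposited table, and all 29 passed the filter on low counts that left 12283 genes for testing. The cells were TER119-negative erythroblasts, the stage before the surface mark of late red cell precursors is gained, purified from fetal livers of the C57BL/6J strain and grown in medium containing erythropoietin. They were kept for 30 h with Carbon Dots (CDs), carbon nanoparticles obtained from the plant Codonopsis pilosula, at 1 ug/ml, or without them. There were 3 CDs libraries and 3 untreated libraries, each numbered 1 to 3. The labels do not state whether the numbers stand for separate cultures or livers, so every p-value reflects the spread among the libraries at hand and that spread may be technical. Libraries of the same group differed by far more than counting noise, with a chi-square per degree of freedom between 11.5 and 300.1.

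Cells make cholesterol from acetyl-CoA through mevalonate, which is built up into farnesyl diphosphate, joined into squalene, closed into the ring of lanosterol and then trimmed and reduced step by step. The genes of nearly all these steps are targets of SREBP2, a membrane-bound factor that its escort Scap carries to the Golgi when sterols are scarce, where the proteases encoded by Mbtps1 and Mbtps2 cut it free. When sterols are plentiful, Insig1 and Insig2 hold Scap in the endoplasmic reticulum, and oxysterols switch on LXR, the factor that drives sterol export. Red cell membranes are rich in cholesterol, and an erythroblast can make it or take it up with lipoproteins.

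The libraries held between 17695997 and 20066581 expected counts, the read counts that the submitters' counting program assigned to genes. Both libraries numbered 3 stood apart from the others along a first principal component that took 88.7% of the variance, at 95.7 for CDs and 74.6 for untreated, whereas the other libraries lay between -52.0 and 14.9 for CDs and at -87.1 and -46.2 for untreated. Summed macrophage markers followed the same split, at 361, 1495 and 4878 CPM (counts scaled to library size) in CDs libraries 1, 2 and 3, against 156, 460 and 3814 CPM in untreated libraries 1, 2 and 3. Of these 13 markers none was at 0 in every library, and 1 (Timd4) was at 0 in some. The 10 erythroid markers, among them Gata1, Klf1 and the alpha and beta globins, were detected in every library and summed to between 56642 and 71924 CPM in CDs libraries and between 61113 and 72849 CPM in untreated libraries. Summed markers of the other cell types that a fetal liver preparation can hold spanned 14.5 to 83.3 CPM in CDs and 7.08 to 65.5 CPM in untreated libraries for endothelium, 242 to 452 CPM and 166 to 350 CPM for hepatocytes, and 324 to 1506 CPM and 227 to 1433 CPM for granulocytes. For megakaryocytes they spanned 78.2 to 111 CPM in CDs and 74.4 to 81.0 CPM in untreated libraries, for mast cells 20.4 to 83.9 CPM and 16.1 to 139 CPM, and for mesenchyme 93.7 to 196 CPM and 77.8 to 180 CPM. Within numbers 1, 2 and 3 the median log2 difference of the tested markers, CDs minus untreated, was 1.56, 2.13 and 0.51 for macrophages, 1.56, 1.30 and 0.54 for endothelium, 0.21, 0.64 and 0.41 for hepatocytes, 0.48, 0.74 and 0.08 for granulocytes and 0.50, 0.60 and 0.16 for mesenchyme. The summed markers of these 5 cell types were higher with CDs in 3 of 3 pairs, as were most enzymes of the pathway. Megakaryocyte markers (0.75, 0.70 and -0.18) and mast cell markers (0.23, 0.27 and -0.70) turned in number 3, and erythroid markers had -0.04, -0.13 and -0.13. The part of other cell types in the results was not tested.

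The enzymes of cholesterol synthesis and the sterol transport genes were mostly higher with CDs, while the fold changes of the SREBP2 control genes lay on both sides of none. Of the 20 enzymes, 17 had a fitted log2 fold change (CDs over untreated) above 0, and 14 were higher with CDs in all 3 pairs of libraries of the same number. Over all 29 members the counts were 22 above 0 and 19 higher in every pair, against 51.9% and 30.1% of all genes tested, and the other 7 members lay below 0 (48.1% of all genes). The median log2 fold change was 0.49 for the enzymes, 0.61 for the transport genes and -0.02 for the control genes, beside 0.01 for all genes tested. Within numbers 1, 2 and 3 the enzymes' median difference was 0.61, 0.80 and 0.32, beside 0.04, -0.00 and -0.00 for all genes. Without the pair numbered 3 the enzymes' median was 0.74, and it was 0.24 without CDs library 3 and 0.23 without untreated library 1. In RNA from whole cultures, fewer cells of a type and less RNA per cell cannot be told apart.

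No member passed the test across all genes, edgeR's quasi-likelihood test with Benjamini-Hochberg adjustment at a threshold of 0.05, and neither did any other gene (0% of those tested, smallest adjusted p = 0.994). At an unadjusted p under 0.05 the same edgeR test took 2 members as higher with CDs, Fdft1 and Hsd17b7 (0.708% of all genes), and 0 as lower (0.326%). The 3 CDs libraries lay above all 3 untreated libraries for 2 members, Fdft1 and Ebp (2.36% of all genes), and below them for 0 (2.33%). With the library number as a block, edgeR passed 0 members at an adjusted p under 0.05 (0.0244% of all genes higher and 0.0163% lower), and limma-voom passed 0 as well (0.057% of all genes in either direction). At an unadjusted p under 0.05 edgeR with the block took 15 members as higher (18% of all genes) and 0 as lower (11.9%). At an adjusted p under 0.10 it took 7 as higher (5.17%; 0 members lower against 3.13%), namely Acat2, Mvk, Sqle, Lss, Hsd17b7, Stard4 and Npc1. DESeq2 without the block passed 0 members (0.0733% of all genes higher and 0.0407% lower). DESeq2 with the same block passed 11 members, all higher with CDs (7.76% of all genes, and 0 members lower against 2.09%): Acat2, Mvk, Fdft1, Sqle, Lss, Cyp51, Nsdhl, Hsd17b7, Stard4, Npc1 and Npc2. In that fit their log2 fold changes ran from 0.46 to 1.15 and their adjusted p from 1.74e-06 to 0.0301, whereas over all alternatives tried these 11 genes had adjusted p between 1.74e-06 and 1.00. DESeq2 with the block gave no adjusted p for Hmgcs1, Dhcr7 and Srebf2, so these members could not pass in that fit.

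**Figure D1:**
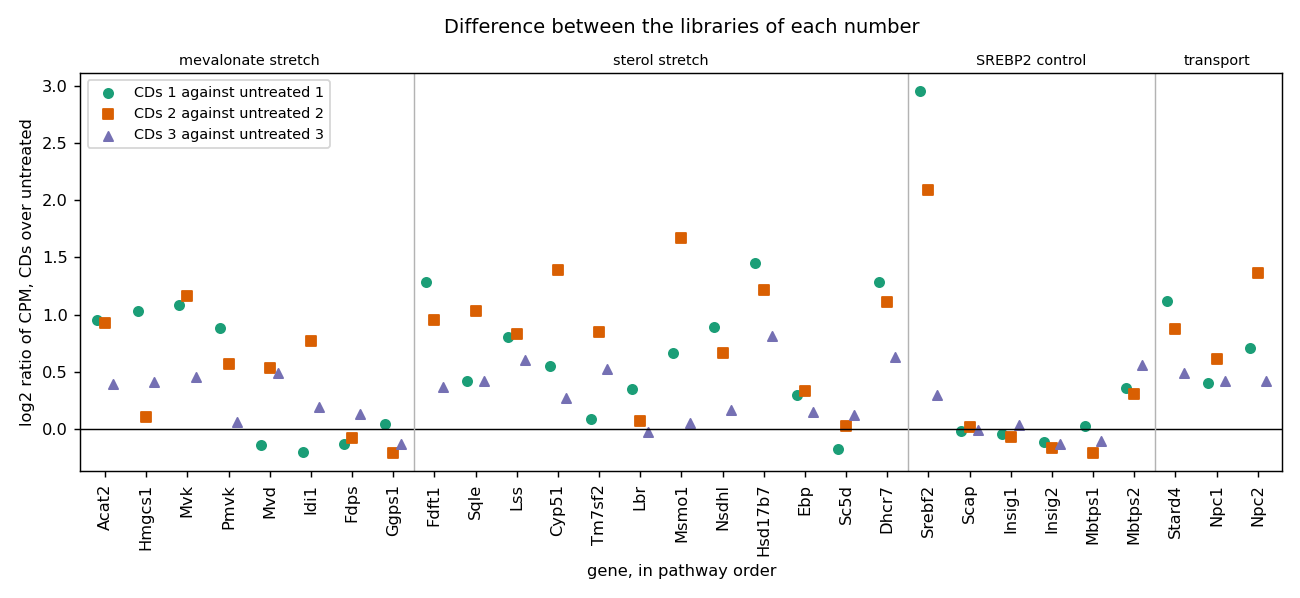
Log2 ratio of CPM, CDs over untreated (vertical axis), between the libraries of each number (one symbol per number) for the 29 genes in pathway order (horizontal axis). For 19 genes all 3 symbols lie above 0, while Scap, Insig1, Insig2 and Mbtps1 lie close to 0.

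The start regions of the members were searched for 4 short motifs, since the enzymes are known as a group of common SREBP2 targets. RefSeq promoter windows of GRCm38.p6, each running from 250 bases before to 50 bases after a transcription start, were at hand for 24 of the 29 members. Fdps, Fdft1, Sqle, Stard4 and Npc1 had no window and were not searched. On both strands, the CCAAT box (CCAAT), known to bind NF-Y, a partner of SREBP2, was present in 20 of the 24 members (83.3%), beside 43.6% of 9874 tested genes with a window. Counted by window, it was in 20 of the members' 30 windows, beside 37.4% of all 32851 windows. A GC box (CCGCCC) was present in 21 members (87.5%), beside 67.2% of tested genes, and in 24 of the members' 30 windows, beside 35.7% of all windows. The sterol regulatory element spelled TCACNCCA was present in 3 members (12.5%), Hmgcs1, Msmo1 and Srebf2, beside 4.53% of tested genes. It was in 3 of the members' 30 windows, beside 4.36% of all windows. The E-box CACGTG was present in 5 members (20.8%), Hsd17b7, Sc5d, Dhcr7, Scap and Insig1, beside 11.8% of tested genes. It was in 6 of the members' 30 windows, beside 7.15% of all windows. A match is a description of the letters, not a binding site or a cause, and a window without one says nothing of the factor. The windows of 5 members are printed 5′ to 3′ on the gene's own strand: the 3 with the sterol regulatory element, Hsd17b7 as the enzyme with the largest fitted difference, and Insig1 as a control gene that stood level. Capitals mark the sterol regulatory element, the E-box and the CCAAT box on either strand (CCAAT reads ATTGG on the other), none of these 3 kinds overlapping another, and GC boxes are left in lower case. The windows lie at chr15:82147019-82147318 (plus strand) for Srebf2, chr13:119690101-119690400 (plus) for Hmgcs1, chr8:64733529-64733828 (minus) for Msmo1, chr1:169969156-169969455 (minus) for Hsd17b7 and chr5:28071162-28071461 (plus) for Insig1.
Srebf2: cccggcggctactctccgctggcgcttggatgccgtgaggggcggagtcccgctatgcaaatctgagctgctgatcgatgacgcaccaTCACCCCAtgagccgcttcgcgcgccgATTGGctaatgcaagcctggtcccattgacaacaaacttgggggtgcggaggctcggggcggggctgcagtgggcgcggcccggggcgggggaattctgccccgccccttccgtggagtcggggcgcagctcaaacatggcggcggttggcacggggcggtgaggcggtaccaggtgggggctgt
Hmgcs1: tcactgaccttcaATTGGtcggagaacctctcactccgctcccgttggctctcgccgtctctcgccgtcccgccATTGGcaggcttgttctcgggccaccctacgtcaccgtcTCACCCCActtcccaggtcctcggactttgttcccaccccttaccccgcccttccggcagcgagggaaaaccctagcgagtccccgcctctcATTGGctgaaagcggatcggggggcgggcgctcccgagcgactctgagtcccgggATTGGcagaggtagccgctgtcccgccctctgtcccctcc
Msmo1: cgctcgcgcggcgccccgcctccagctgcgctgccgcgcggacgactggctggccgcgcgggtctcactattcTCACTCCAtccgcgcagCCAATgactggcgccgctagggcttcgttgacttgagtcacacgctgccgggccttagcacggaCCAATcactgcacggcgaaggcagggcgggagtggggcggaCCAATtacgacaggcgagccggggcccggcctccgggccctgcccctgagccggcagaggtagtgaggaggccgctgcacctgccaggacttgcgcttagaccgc
Hsd17b7: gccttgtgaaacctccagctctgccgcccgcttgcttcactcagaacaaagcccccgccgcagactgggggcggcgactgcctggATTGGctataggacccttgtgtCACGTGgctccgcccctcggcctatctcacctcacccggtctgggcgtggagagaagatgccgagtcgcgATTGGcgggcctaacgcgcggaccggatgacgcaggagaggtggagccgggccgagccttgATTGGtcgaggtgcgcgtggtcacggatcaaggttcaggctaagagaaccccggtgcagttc
Insig1: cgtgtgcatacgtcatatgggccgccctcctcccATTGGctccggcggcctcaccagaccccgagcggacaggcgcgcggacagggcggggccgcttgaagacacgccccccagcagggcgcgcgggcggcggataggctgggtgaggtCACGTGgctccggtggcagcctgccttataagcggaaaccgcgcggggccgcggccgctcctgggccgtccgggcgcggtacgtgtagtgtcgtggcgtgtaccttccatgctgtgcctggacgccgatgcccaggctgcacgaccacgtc
The sterol regulatory element began 162 bases before the start in Srebf2, 137 before it in Hmgcs1 and 177 before it in Msmo1. The E-box began 143 bases before the start in Hsd17b7 and 101 before it in Insig1.

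**Figure D2:**
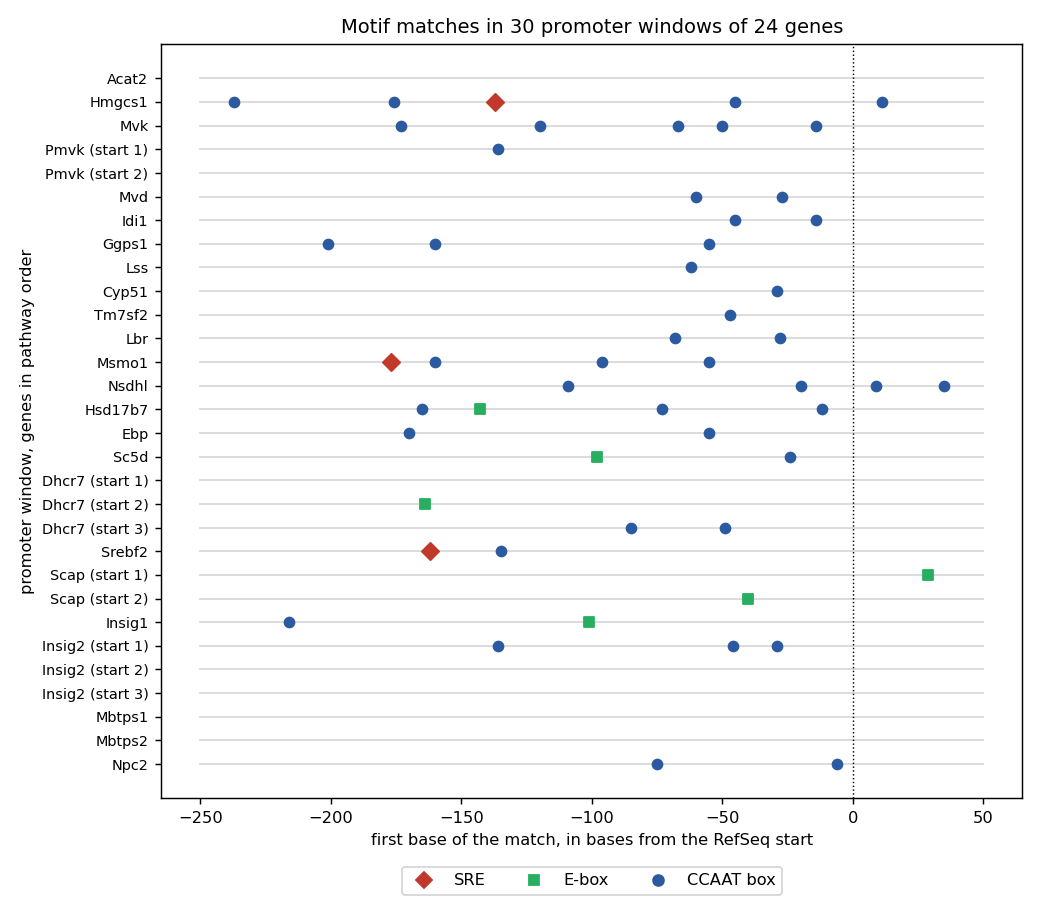
First base of each match to the sterol regulatory element (SRE), the E-box and the CCAAT box, in bases from the RefSeq transcription start (horizontal axis), in 30 promoter windows of 24 members, one line per window. CCAAT boxes are seen in 20 members, and the sterol regulatory element in Hmgcs1, Msmo1 and Srebf2.

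The first stretch of the pathway, from acetyl-CoA to the farnesyl and geranylgeranyl diphosphates, is catalysed by the products of 8 of the enzyme genes. Acat2, the thiolase that joins the first acetyl units, had 44.4, 34.3 and 15.03 CPM in CDs libraries 1, 2 and 3, against 22.9, 18.1 and 11.4 CPM in untreated libraries 1, 2 and 3. It was higher with CDs within each number, but CDs library 3 lay below untreated libraries 1 and 2, so the groups overlapped. The log2 fold change was 0.84 ± 0.47 (SE; edgeR adjusted p = 0.994). With the library number as a block edgeR gave 0.77 ± 0.13 (SE; adjusted p = 0.0916). Acat2 has a near-identical neighbour, Acat3, to which reads can be split. Acat3 measured between 0.754 and 0.972 CPM in CDs and between 1.07 and 1.90 CPM in untreated libraries. It was thus lower with CDs, where Acat2 was higher within each number. How reads were split between Acat2 and Acat3 was not tested.

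Of the other 7 genes of this stretch, Mvk, Pmvk and Hmgcs1 were also higher with CDs in all 3 pairs. Mvk, which phosphorylates mevalonate, differed by factors of 2.12, 2.24 and 1.37 within numbers 1, 2 and 3, and Pmvk, the next kinase, by 1.84, 1.48 and 1.04. Hmgcs1, the synthase that makes the precursor of mevalonate and carries the sterol element printed above, was low throughout, at 2.002 to 2.41 CPM with CDs and 0.981 to 2.25 CPM untreated. Mvd, the decarboxylase that yields isopentenyl diphosphate, and Idi1, its isomerase, were higher with CDs in 2 of 3 pairs. Fdps, which makes farnesyl diphosphate, and Ggps1, which turns it to the lipid used for protein prenylation, had log2 fold changes of -0.06 ± 0.48 and -0.10 ± 0.12 and were higher with CDs in 1 of 3 pairs each. Thus 4 of the 8 genes were higher in every pair (30.1% of all genes tested), and the median log2 fold change of all 8 was 0.43.

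The second stretch, from squalene to cholesterol, holds 12 of the enzymes, and 10 of them were higher with CDs in every pair (30.1% of all genes tested). Fdft1, squalene synthase, which commits farnesyl diphosphate to sterols (chromosome 14, 63145150 to 63181687, GRCm38.p6), had 173, 144 and 81.0 CPM in CDs libraries 1, 2 and 3, against 71.1, 74.4 and 62.8 CPM in untreated libraries 1, 2 and 3. Every CDs library lay above every untreated one, with the narrowest gap in the pair numbered 3. Within numbers 1, 2 and 3 the ratio of CDs to untreated was 2.44, 1.94 and 1.29. Across the alternatives tried its log2 fold change stayed between 0.69 and 1.19. Fdft1 shares 774 exonic bases with Ctsb on the opposite strand, and nothing states that the counting used strand, so reads there cannot be told apart. Ctsb itself, a lysosomal protease, measured 1004, 1684 and 4898 CPM with CDs, against 842, 953 and 3485 CPM untreated, and was thus highest in the libraries numbered 3, where Fdft1 was lowest with CDs and lowest untreated.

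Hsd17b7, the ketoreductase that completes the removal of a methyl group from the sterol ring (chromosome 1, 169949535 to 169969242), had 44.7, 31.5 and 15.6 CPM in CDs libraries 1, 2 and 3, against 16.3, 13.6 and 8.89 CPM in untreated libraries 1, 2 and 3. It was higher with CDs in each pair, by 2.74, 2.32 and 1.75 times, and the groups overlapped only in that CDs library 3 lay just below untreated library 1. DESeq2 with the number as a block gave an adjusted p of 1.74e-06, and over all alternatives tried the adjusted p ran from that value to 1.00 and the log2 fold change from 0.86 to 1.56.

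Nsdhl, the dehydrogenase that works beside Hsd17b7 on the same methyl groups (X chromosome, 72918521 to 72958528), had 61.6, 48.7 and 26.4 CPM with CDs, against 33.3, 30.8 and 23.5 CPM untreated, in libraries 1, 2 and 3. It was higher with CDs within each number, and CDs library 3 lay among the untreated libraries. The log2 fold change was 0.64 ± 0.34 (SE; edgeR adjusted p = 0.994). With the library number as a block edgeR gave 0.58 ± 0.15 (SE; adjusted p = 0.106).

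Ebp, the isomerase that moves the ring's double bond (X chromosome, 8185329 to 8193512), had 38.9, 41.4 and 38.8 CPM in CDs libraries 1, 2 and 3, against 31.8, 32.8 and 35.1 CPM in untreated libraries 1, 2 and 3. The groups did not overlap, and neither library numbered 3 stood out. The difference was small, with a log2 fold change of 0.26 ± 0.11 (SE) that stayed between 0.20 and 0.30 across the alternatives tried. Neither edgeR nor DESeq2 passed Ebp with the block, at adjusted p = 0.107 and 0.272, and over all alternatives its adjusted p ran from 0.1003 to 1.00.

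Dhcr7, the reductase of the last step in one branch (chromosome 7, 143823167 to 143848410), was among the lowest members, at 1.26, 0.553 and 1.204 CPM with CDs, against 0.516, 0.256 and 0.781 CPM untreated, in libraries 1, 2 and 3. It was higher with CDs within each number, with the groups overlapping. These values rest on 22, 11 and 25 counts with CDs, against 10, 5 and 16 untreated.

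**Figure D3:**
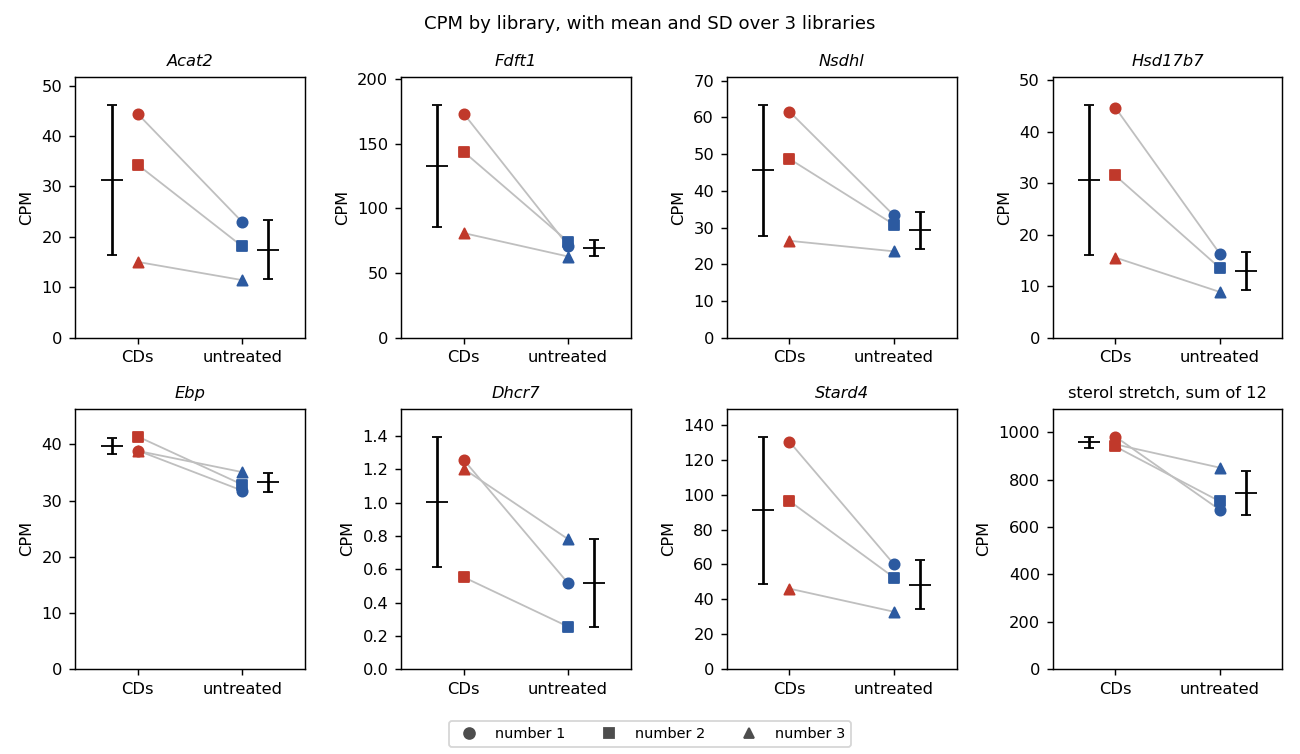
CPM in each library (vertical axis; symbols for the library number, lines joining libraries of the same number) with the mean and SD over 3 libraries, CDs left and untreated right, for the 6 enzymes with the smallest unadjusted p, Stard4 and the sum of the 12 enzymes of the sterol stretch. The groups do not overlap for Fdft1, Ebp and the sum, and the CDs libraries numbered 3 are the lowest of their group for Acat2, Fdft1, Nsdhl, Hsd17b7 and Stard4.

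The other 7 enzymes of this stretch divided by how they followed the library number. Lss, which closes squalene epoxide into lanosterol, was higher with CDs by a steady 1.75, 1.78 and 1.52 times within numbers 1, 2 and 3, and its level was lowest in both libraries numbered 3. Sqle, the epoxidase before it, was higher by 1.34, 2.05 and 1.34 times. Cyp51, the demethylase that first acts on lanosterol, had 20.3, 80.3 and 258 CPM with CDs, against 13.9, 30.6 and 214 CPM untreated, in libraries 1, 2 and 3. Msmo1, a methyl oxidase that acts later in the stretch, had 8.35, 18.9 and 66.4 CPM with CDs, against 5.27, 5.93 and 64.1 CPM untreated. For both genes, given in full after their values were seen, the spread between numbers was larger than the difference between groups. Msmo1, whose window is printed above, was 3.19 times as high with CDs in number 2 and 1.04 times in number 3.

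The remaining 3 genes were Tm7sf2, Lbr and Sc5d. Tm7sf2 and Lbr encode reductases of the same ring double bond, Lbr also being a lamin receptor of the inner nuclear membrane. Tm7sf2 was higher with CDs by 1.06, 1.80 and 1.44 times, and Lbr differed by 1.27, 1.05 and 0.982 times. Sc5d, the desaturase before Dhcr7's step, had a log2 fold change of -0.04 ± 0.29 and was higher with CDs in 2 of 3 pairs, its direction turning to 0.01 on the deposited FPKM values.

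Summed over all 20 enzymes, expression was 1174, 1136 and 1288 CPM in CDs libraries 1, 2 and 3, against 824, 858 and 1114 CPM in untreated libraries 1, 2 and 3. The CDs libraries all lay above the untreated ones, though CDs library 2 exceeded untreated library 3 by little. The means were 1199 ± 79.3 CPM with CDs and 932 ± 159 CPM untreated (SD, n = 3 each; exact two-sided permutation p = 0.1, the smallest that 3 against 3 libraries can give). With DESeq2's size factors (exact p = 0.2) and on FPKM (exact p = 0.3) the groups overlapped. Lbr alone gave the greatest share of this sum, and without it the other 19 enzymes summed to 629, 655 and 938 CPM with CDs, against 396, 401 and 757 CPM untreated, groups that overlapped (exact p = 0.3) while each pair was higher with CDs. Without the pair numbered 3, the mean sum over 20 enzymes was higher with CDs by 314 CPM, beside 267 CPM with all libraries. The 12 enzymes of the sterol stretch summed to 981, 939 and 949 CPM with CDs, against 672, 708 and 850.1 CPM untreated, with no overlap (exact p = 0.1), and without Lbr these groups too overlapped (exact p = 0.3).

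The 2 stretches of the pathway were compared within each library by the log2 ratio of their summed CPM, sterol over mevalonate. This ratio was 2.35, 2.26 and 1.48 in CDs libraries 1, 2 and 3, against 2.15, 2.24 and 1.69 in untreated libraries 1, 2 and 3. Both libraries numbered 3 had the lowest ratio of their group, and the groups overlapped. The mean difference was 0.0059 (exact two-sided permutation p = 1.0), so no difference in change between the stretches was shown. Lbr made up much of the sterol sum, and without it the ratio was 1.18, 1.23 and 0.82 with CDs, against 0.68, 0.74 and 0.90 untreated. It was then higher with CDs in numbers 1 and 2 and lower in number 3, and the mean difference was 0.30 (exact two-sided permutation p = 0.2).

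Srebf2, the gene of the factor itself (window printed above), was scarce, with 7, 13 and 51 counts in CDs libraries 1, 2 and 3, against 1, 3 and 41 counts in untreated libraries 1, 2 and 3. Scaled for depth this was 0.400, 0.654 and 2.46 CPM with CDs, against 0.0516, 0.153 and 2.002 CPM untreated. Both libraries numbered 3 held far more than the others of their group, and within each number the CDs library was higher by counts. Within numbers 1, 2 and 3 the ratio of CDs to untreated was 7.75, 4.26 and 1.23, with 95% intervals that cover counting error only of 0.996 to 349, 1.17 to 23.3 and 0.798 to 1.90. The fitted log2 fold change was 0.67 ± 1.34 (SE; edgeR adjusted p = 0.994), and it ran from -0.48 to 3.44 as libraries were left out. On the deposited FPKM scale Srebf2 had 0.06, 0.12 and 0.40 with CDs, against 0.02, 0.04 and 0.45 untreated. In number 3 the order thus turned and the CDs library was lower. Whether the low values come from how reads were assigned to Srebf2 was not tested.

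Scap, the escort of SREBP2, had 40.1, 37.8 and 32.2 CPM with CDs, against 40.7, 37.3 and 32.3 CPM untreated, in libraries 1, 2 and 3. Each CDs library lay next to the untreated library of its number. Mbtps1, the first protease to cut SREBP2, had 88.0, 82.8 and 79.9 CPM with CDs, against 86.6, 95.6 and 85.9 CPM untreated, and the groups overlapped. Mbtps2, the second protease, had 13.7, 11.5 and 17.6 CPM with CDs, against 10.7, 9.31 and 11.96 CPM untreated. Mbtps2 was the control gene besides Srebf2 that was higher with CDs in all 3 pairs, by 1.28, 1.24 and 1.47 times, with the groups overlapping by CDs library 2 alone. Its log2 fold change was 0.42 ± 0.22 (SE; edgeR adjusted p = 0.994), and 2867 of its exonic bases are shared with Yy2 on the same strand, a gene at 2.23 to 4.34 CPM with CDs and 1.43 to 3.27 CPM untreated.

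Insig1, a retention factor that is itself a known SREBP2 target, had 93.6, 96.0 and 107 CPM with CDs, against 96.8, 101 and 105 CPM untreated, in libraries 1, 2 and 3. Insig2, its relative, had 10.01, 11.4 and 11.5 CPM with CDs, against 10.8, 12.8 and 12.6 CPM untreated. Neither gene separated the groups, and Insig2 was the single member lower with CDs in all 3 pairs (26.2% of all genes). Their log2 fold changes were -0.03 ± 0.11 and -0.14 ± 0.16 (SE), both with an edgeR adjusted p of 0.994. The log2 ratio of Insig1 to Insig2 was 3.23, 3.07 and 3.22 with CDs, against 3.16, 2.98 and 3.05 untreated, a mean difference of 0.11 (exact two-sided permutation p = 0.2). The 6 control genes together summed to between 240.1 and 251 CPM with CDs and between 246 and 256 CPM untreated.

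**Figure D4:**
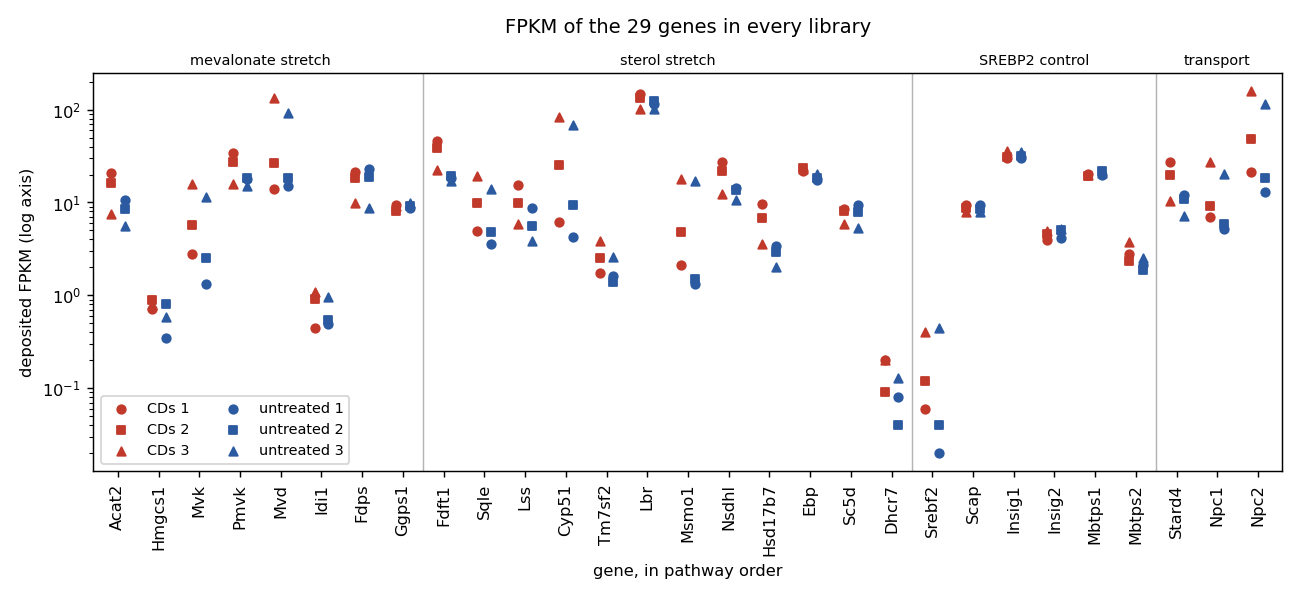
Deposited FPKM, a level per transcript length (vertical log axis), of the 29 genes in pathway order in each library, CDs in red left of untreated in blue, with one symbol per library number. Lbr had the highest mean, 127 FPKM with CDs and 114 FPKM untreated, and Dhcr7 and Srebf2 are lowest.

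Of the 3 transport genes all were higher with CDs in each pair (30.1% of all genes tested). Stard4, a soluble carrier that moves cholesterol between membranes, had 130, 96.3 and 46.1 CPM in CDs libraries 1, 2 and 3, against 60.1, 52.5 and 32.9 CPM in untreated libraries 1, 2 and 3. CDs library 3 lay below untreated libraries 1 and 2, and the other CDs libraries lay above every untreated one. DESeq2 with the block gave Stard4 a log2 fold change of 0.81 ± 0.16 (SE) and an adjusted p of 6.46e-05, where over all alternatives the adjusted p ran from that value to 1.00.

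Npc2, the soluble protein that hands cholesterol out of the lysosome, had 71.5, 160 and 502 CPM with CDs, against 43.8, 62.0 and 375 CPM untreated, in libraries 1, 2 and 3. Npc1, its partner in the lysosomal membrane, had 36.9, 48.3 and 138 CPM with CDs, against 27.99, 31.6 and 103 CPM untreated. Both were highest in the libraries numbered 3, and in both genes the groups overlapped. Npc1 differed by a like ratio within each number, at 1.32, 1.53 and 1.34 times, and Npc2 by 1.63, 2.57 and 1.34 times. Their fitted log2 fold changes were 0.45 ± 0.74 and 0.61 ± 1.09 (SE) without the block and 0.48 ± 0.07 and 0.82 ± 0.20 with it, all by edgeR.

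Many members, like many of all genes, were high or low in number 3. In both libraries numbered 3, 10 members lay above all 4 other libraries (Mvk, Mvd, Idi1, Sqle, Cyp51, Msmo1, Srebf2, Insig1, Npc1 and Npc2), beside 36.9% of all genes tested. Another 8 lay below all 4 (Acat2, Pmvk, Fdps, Lbr, Nsdhl, Sc5d, Scap and Stard4), beside 36.9% of all genes, and 11 did neither. These shares were no larger among the members than over all genes. Among untreated libraries, number 3 exceeded number 1 by 15.4 times for Cyp51, 12.2 times for Msmo1, 8.55 times for Npc2 and 8.28 times for Mvk, and Stard4 and Lss stood at 0.547 and 0.434 times. Of the 10 members above all 4 others, Mvk, Sqle, Cyp51, Msmo1, Srebf2, Npc1 and Npc2 were higher with CDs in every pair. Mvd, Idi1 and Insig1 were not. Of the 8 below all 4, Acat2, Pmvk, Nsdhl and Stard4 were higher in every pair, and Fdps, Lbr, Sc5d and Scap were not. Among all genes tested 30.1% were higher in every pair. The macrophage markers were high in number 3 as well. Their part in the members' values was not tested.

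**Figure D5:**
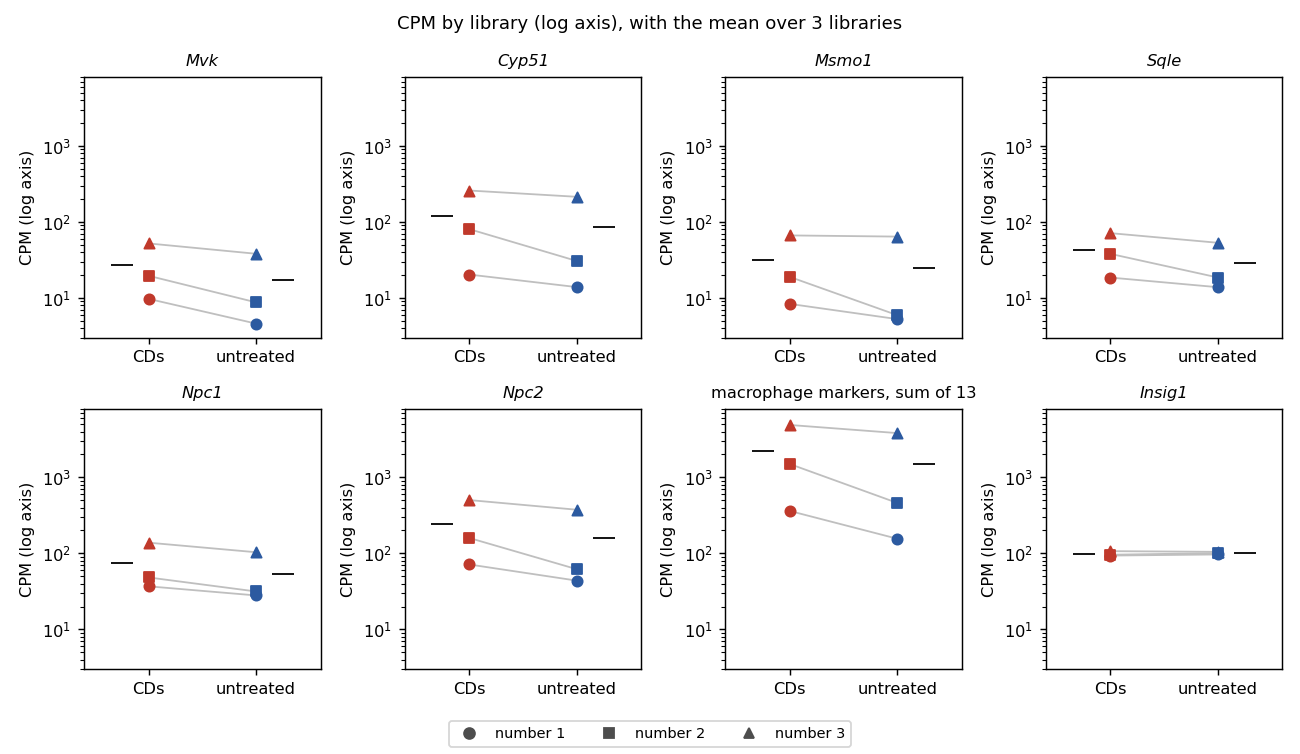
CPM (log axis) in each library for members that were high in number 3, for the 13 summed macrophage markers and for Insig1, CDs left and untreated right, with lines joining libraries of the same number and bars for the mean over 3 libraries. The libraries numbered 3 lie far above the others for Cyp51 (258 and 214 CPM) and Npc2 (502 and 375 CPM), and little above them for Insig1 (107 and 105 CPM).

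In level per transcript length the members spanned a wide range, with Lbr first (127 ± 24.2 FPKM with CDs and 114 ± 11.8 FPKM untreated), then Npc2 (76.1 ± 72.9 and 49.1 ± 57.9 FPKM). Mvd (57.5 and 41.7 FPKM), Cyp51 (38.3 and 27.4 FPKM), Fdft1 (35.6 and 18.4 FPKM) and Insig1 (32.2 and 32.3 FPKM) followed with CDs, though the SD of Npc2, Mvd and Cyp51 was about as large as their means, so neighbours in this order cannot be told apart. The lowest were Dhcr7 (0.163 and 0.0833 FPKM), Srebf2, Hmgcs1 (0.800 and 0.580 FPKM) and Idi1 (0.817 and 0.663 FPKM). Whether the assignment of reads to genes lowered these values was not tested. All members together took 0.164, 0.167 and 0.232 percent of the counts in CDs libraries 1, 2 and 3, against 0.117, 0.124 and 0.191 percent in untreated libraries 1, 2 and 3.

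Genes around the pathway were read from 7 further lists, none of whose members passed edgeR's test. The lists that share intermediates or machinery with the members stood near 0. The 17 genes of the side branches of mevalonate, which make dolichol, ubiquinone and prenyl groups, had a median log2 fold change of -0.05, with Zmpste24 at 0.14 ± 0.10 (SE), Rabggtb at -0.35 ± 0.31 and Dolk at 0.20 ± 0.22. The 11 genes of sterol-regulated degradation in the endoplasmic reticulum had a median of -0.04. Rnf145, a ubiquitin ligase there, had 120.4, 101 and 80.3 CPM with CDs, against 126, 132 and 122 CPM untreated. Its CDs libraries all lay below the untreated ones, as for 2.33% of all genes. Erlin1 and Erlin2, membrane scaffolds of that system, had 0.48 ± 0.52 and 0.23 ± 0.22. The 10 genes of the COPII coat, which buds the vesicles that carry Scap and SREBP2, had a median of 0.05, with Sec13 at -0.20 ± 0.17, Sec24b at 0.21 ± 0.22 and Sec23a at 0.15 ± 0.15.

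Lists of sterol handling stood above 0. Of 14 genes of sterol transfer, esterification and lysosomal lipid breakdown 12 had a log2 fold change above 0 (median 0.50; 51.9% of all genes lay above 0), with Tmem97, a sterol-regulated membrane protein, at 0.83 ± 0.43 (SE), Gramd1a, a sterol transfer protein, at 0.72 ± 0.63 and its relative Gramd1c at -0.52 ± 0.28. DESeq2 with the block passed 6 of the 14 as higher (7.76% of all genes) and 0 as lower (2.09%). The 6 were Soat1, Gramd1a, Tmem97, Lipa, Nceh1 and Scarb2. Summed, the 14 genes had 388, 528 and 1032 CPM in CDs libraries 1, 2 and 3, against 341, 368 and 763 CPM untreated. This sum too was highest in number 3, like the macrophage markers, the groups overlapped, and the part of such cells was not tested. All 8 genes of lipoprotein uptake lay above 0 (median 0.33; 51.9% of all genes), and DESeq2 with the block passed 3 as higher (7.76% of all genes) and 0 as lower (2.09%). Their summed level was highest in number 3, as that of the macrophage markers was, at 673, 876 and 1705 CPM with CDs, against 502, 537 and 1245 CPM untreated, and the part of such cells was not tested. Scarb1, a receptor for high-density lipoprotein, had 172, 174 and 163 CPM with CDs, against 137, 146 and 129 CPM untreated, with every CDs library above every untreated one (2.36% of all genes). Vldlr, a lipoprotein receptor at under 1 CPM in every library, and Dab2, an endocytic adaptor that was highest in number 3, had 0.59 ± 0.32 and 1.23 ± 1.19.

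The SREBP1 and fatty acid list had 8 of 13 genes above 0 (median 0.32; 51.9% of all genes), and DESeq2 with the block passed 6 of them as higher (7.76% of all genes) and 0 as lower (2.09%). Its summed level was 1121, 814 and 589 CPM with CDs, against 898, 786 and 733 CPM untreated, and was thus lower with CDs in number 3. Scd1, a desaturase given after its values were seen, was lower with CDs in all 3 pairs, at 10.4, 5.13 and 2.41 CPM with CDs, against 10.9, 8.59 and 8.89 CPM untreated. Fads1, a fatty acid desaturase, had 89.2, 86.1 and 76.8 CPM in CDs libraries 1, 2 and 3, against 56.6, 56.8 and 57.2 CPM in untreated libraries 1, 2 and 3. Elovl6, an elongase, had 18.7, 17.6 and 12.1 CPM with CDs, against 8.42, 8.64 and 6.49 CPM untreated, and Acly, which makes cytosolic acetyl-CoA, had 151, 141 and 141 CPM with CDs, against 115, 110 and 122 CPM untreated. In Fads1, Elovl6 and Acly every CDs library lay above every untreated one (2.36% of all genes), and the log2 fold changes were 0.56 ± 0.11 for Fads1, 1.04 ± 0.24 for Elovl6 and 0.32 ± 0.10 for Acly (SE). Fads1 was among the 14 genes that DESeq2 passed without the block (adjusted p = 0.0102), where edgeR gave 0.994.

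Genes that LXR switches on when sterols are plentiful were mostly lower with CDs. Of this list of 8, which holds the LXR genes themselves, 2 lay above 0 (median -0.31; 51.9% of all genes), and DESeq2 with the block passed 4 as lower (2.09% of all genes), Abca1, Abcg1, Mylip and Lpcat3, and 1 as higher (7.76%), Nr1h3. Abcg1, a sterol exporter, had 10.2, 14.6 and 91.5 CPM in CDs libraries 1, 2 and 3, against 106, 105 and 263 CPM in untreated libraries 1, 2 and 3. Mylip, the ligase that marks lipoprotein receptors for degradation, had 37.6, 38.4 and 47.5 CPM with CDs, against 49.6, 55.7 and 81.4 CPM untreated, and Lpcat3, a phospholipid acyltransferase, had 76.1, 84.9 and 86.7 CPM with CDs, against 90.02, 103 and 116 CPM untreated. In each of the 3 genes every CDs library lay below every untreated one (2.33% of all genes). Their log2 fold changes were -2.02 ± 0.98 for Abcg1, -0.60 ± 0.23 for Mylip and -0.32 ± 0.14 for Lpcat3 (SE), each with an edgeR adjusted p of 0.994. The list of 8 summed to 231, 295 and 576 CPM with CDs, against 358, 401 and 887 CPM untreated. The groups overlapped (exact two-sided permutation p = 0.5), and the list's median was -0.19 in edgeR with the block. This sum too was highest in number 3, like the macrophage markers, and the part of such cells was not tested.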

How the data were processed

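Polyadenylated RNA was sequenced as single-end reads of 50 bases, per the labels' protocols. The authors deposited expected counts per gene and FPKM values for the same 6 libraries. Per the submitters' processing notes, the build was GRCm38.p6 and the tools named were RSEM 1.2.12, DESeq2 1.4.5, Bowtie2 2.2.5 and HISAT2 2.0.4, and the role of each is not given in the sources used here. Expected counts were rounded to whole numbers, since 30.1% of values were not whole. Genes were kept by filterByExpr (12283 of 17691), scaled by TMM to CPM and tested for treatment alone with edgeR 4.0.16 (glmQLFit robust, glmQLFTest, R 4.3.3), with p-values adjusted over all genes tested. The SE printed with an edgeR log2 fold change was derived from the test, as the absolute log2 fold change divided by the square root of the F statistic. Unless the block or the alternatives are named, SE and adjusted p come from a fit without the block. The common coefficient of variation between libraries in edgeR was 0.485 without the block and 0.112 with it. Sums and ratios were tested by exact two-sided permutation over libraries. The members and the other gene lists were chosen with earlier results of these data known. All 29 members are named. Values in every library are given for the 6 enzymes with the smallest unadjusted p, for the control and transport genes and for members whose groups do not overlap, and up to 3 genes with the smallest p are named per further list.

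Alternatives were DESeq2 1.42.0 and limma-voom (limma 3.58.1), each with and without the library number as a block, DESeq2's size factors, no filter, limma on log2(FPKM + 0.1), and leaving out libraries. Libraries of the same number deviated together from their group means (correlations 0.910, 0.345 and 0.938 for numbers 1, 2 and 3), so the numbers were taken to pair the samples. CDs library 2 correlated less with its own number than CDs library 1 did with untreated library 2 (0.681). This pairing comes from the data, not from the labels. Only the edgeR fits, with and without the block, were also run on counts simulated with a common dispersion. No statement above rests on those runs, and they do not cover DESeq2, limma-voom or the permutation tests. Counts per library ran from 17695997 to 20066581, and intervals cover counting error only.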

Additional observations from a re-analysis of the deposited data

How the results depend on the processing

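The count of genes passing over all genes was 0 by edgeR, 14 by DESeq2, 5 by edgeR with the replicate block, 7 by limma-voom with the block and 1210 by DESeq2 with the block (953 higher and 257 lower), and 0 to 0 as libraries were left out. The count of members passing was 0 in each of these fits except DESeq2 with the block, which passed 11. The enzymes' median log2 fold change ran from 0.48 to 0.55 over tools, scaling, filter and block, and from 0.23 to 0.74 as libraries were left out. The difference in the enzymes' summed CPM ran from 213 to 358 CPM as libraries were left out, and exchange of treatment within numbers (the paired analysis) gave an exact permutation p of 0.25, the smallest possible. The log2 ratio of the sterol to the mevalonate stretch differed by -0.0254 on FPKM, 0.30 without Lbr (an alternative chosen after seeing the data) and from -0.16 to 0.28 as libraries were left out, and that of Insig1 to Insig2 from 0.07 to 0.16. On FPKM the sign turned for Sc5d (0.0106) and Scap (0.0193). As libraries were left out the sign turned for 13 members, whose ranges were -0.23 to 2.02 for Mvk, -1.01 to 1.71 for Mvd, -0.39 to 0.24 for Fdps, -0.0137 to 1.39 for Sqle, -0.77 to 2.43 for Cyp51, -0.00244 to 0.31 for Lbr, -0.88 to 2.48 for Msmo1, -0.25 to 0.17 for Sc5d, -0.48 to 3.44 for Srebf2, -0.0905 to 0.0818 for Scap, -0.0890 to 0.00262 for Insig1, -0.35 to 1.32 for Npc1 and -0.47 to 2.21 for Npc2. The other 16 members kept their sign under every alternative run. The cause of these changes was not tested. Depth limits Srebf2 and Dhcr7, with 1 to 51 and 5 to 25 counts a library.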
